A study of Mus musculus with 6 samples.

Results

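The 4 Hox clusters of the mouse were followed through 48 probe sets for 33 genes, out of 45101 probe sets and 18193 genes measured on each array. Members were all probe sets whose platform annotation names a single gene with a symbol of Hoxa, Hoxb, Hoxc or Hoxd followed by a number. They were grouped by cluster and by paralogue number, the place a gene takes along its cluster, from 1 at one end to 13 at the other. The RefSeq table of the mouse lists 39 such genes: cluster A on chromosome 6, B on chromosome 11, C on chromosome 15 and D on chromosome 2. The other 6 genes are not analysed here.

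The RNA came from YFP-positive cells sorted from mouse embryos at embryonic day 9.0, in 2 groups of 3 arrays, wild type and mutant. The mutant embryos carried Isl1-cre, a Rosa-YFP reporter and a Beta-catenin allele with loxP sites around exon 3 (ex3), so that cells with a history of Isl1 expression are labelled and make a stabilized β-catenin, the nuclear effector of canonical Wnt signalling. The alleles of the wild-type embryos are not spelled out in the labels. The design text describes both groups as YFP-positive cells of the Isl1-cre domain, with the stabilized protein in the mutant alone. It speaks of at least 3 independent experiments, without tying samples to them, and the number of embryos behind each sample is not stated. The p-values therefore measure the spread between these samples, which may be partly technical. The labels name the cells cardiac progenitors. Of 14 measured genes of the second heart field, 13 had a mean above the background level, and Nkx2-5, at 4.82 in wild type and 4.36 in the mutant, did not. The means of all 15 measured cardiomyocyte genes, and of all 8 measured genes secreted or taken up by visceral endoderm (5 of them on every array), were also above it. Of all genes on the array 77.6% were. In such bulk samples fewer cells of a type and less RNA per cell cannot be told apart.

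Hox genes encode homeodomain transcription factors that give cells an identity along the head-to-tail axis. They are switched on in the order of their place in the cluster: low paralogue numbers start early and reach far forward into hindbrain and pharyngeal levels, while high numbers start late and stay in the trunk and tail. Retinoic acid and the Cdx factors, which respond to Wnt signals, are activators of the clusters, and PBX and MEIS proteins are the DNA-binding partners of Hox proteins. In the heart field, Hoxb1 and Hoxa3 are known to mark retinoid-responsive progenitors at its posterior end.

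For 19 of the 33 genes RefSeq promoters were at hand, taken as 250 bases before to 50 bases after the start (build GRCm38.p6), in 21 entries. The 4 shown here were picked after the values were seen: Hoxa5, Hoxb4 and Hoxc4 went up and down together between arrays, and Hoxb1 did not follow them. Capitals mark matches on either strand to the letters CTTTGA (TCF/LEF), TTTATG (CDX), TGATNNAT (HOX with PBX) or AGGTCA (a part of retinoid receptor sites). No matches overlap in these 4.
Hoxa5 promoter (chr6:52204538-52204837, - strand): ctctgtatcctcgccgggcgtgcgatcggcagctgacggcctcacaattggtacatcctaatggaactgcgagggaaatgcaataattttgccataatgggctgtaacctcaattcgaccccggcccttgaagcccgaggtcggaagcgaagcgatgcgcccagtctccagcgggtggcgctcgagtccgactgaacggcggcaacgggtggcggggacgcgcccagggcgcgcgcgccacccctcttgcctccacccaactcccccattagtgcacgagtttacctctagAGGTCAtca
Hoxb4 promoter (chr11:96318017-96318316, + strand): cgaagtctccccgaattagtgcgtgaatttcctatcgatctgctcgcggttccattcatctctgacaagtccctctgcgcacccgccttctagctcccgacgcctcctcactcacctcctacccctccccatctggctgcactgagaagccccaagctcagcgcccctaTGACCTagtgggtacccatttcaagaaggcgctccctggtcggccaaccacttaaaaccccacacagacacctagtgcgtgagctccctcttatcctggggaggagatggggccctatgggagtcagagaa
Hoxc4 promoter (chr15:103034145-103034444, + strand): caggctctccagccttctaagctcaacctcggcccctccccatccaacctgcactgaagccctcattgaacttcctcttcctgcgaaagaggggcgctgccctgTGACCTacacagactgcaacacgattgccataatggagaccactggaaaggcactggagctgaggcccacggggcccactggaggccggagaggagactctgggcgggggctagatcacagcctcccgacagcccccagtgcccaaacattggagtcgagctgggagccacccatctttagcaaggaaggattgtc
Hoxb1 promoter (chr11:96365508-96365807, + strand): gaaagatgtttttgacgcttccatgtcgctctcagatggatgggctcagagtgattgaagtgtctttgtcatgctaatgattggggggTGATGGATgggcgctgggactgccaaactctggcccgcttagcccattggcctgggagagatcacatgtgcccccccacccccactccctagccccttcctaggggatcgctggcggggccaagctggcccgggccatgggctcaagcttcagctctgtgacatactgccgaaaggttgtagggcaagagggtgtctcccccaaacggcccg
Hoxa5, Hoxb4 and Hoxc4 each hold the letters AGGTCA once, on 1 strand or the other, and Hoxb1 holds the HOX with PBX letters once. Of the 8 Hox promoters whose genes were lowest on the arrays numbered 1 in both groups by their brightest probe set, 5 hold AGGTCA. Those of Hoxa11, Hoxd1 and Hoxd9 do not. Of the other 13 entries 1 holds it, that of Hoxd10. Among these 13, Hoxa3 and Hoxa9 have dimmer probe sets with the same order of arrays, and their promoters lack AGGTCA. The split therefore depends on the probe set chosen. These letters and this order were set side by side after both were seen, and no test was made. Among the genes of the 13 entries, Hoxa10, Hoxa13, Hoxd10, Hoxd11 and Hoxd13 exceeded the background level on no array. The order of their arrays therefore carries little meaning, and the 2 sets of promoters also differ in how many of their genes were detected. AGGTCA was in 6 of the 21 Hox promoters (28.6%) and in 16.3% of 32851 promoters of all genes. TGATNNAT was in 3 Hox promoters (Hoxa2, Hoxb1 and Hoxd11; 14.3%) against 8.85% of all. CTTTGA was in 4 (19%, against 16%) and TTTATG in 3 (14.3%, against 11.9%). A match of letters is a description of the window and does not show a bound site.

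Most Hox genes of low and middle paralogue number were detected, and most of the highest were not. All values are log2, as deposited, and a gene with several probe sets is represented by the brightest. As a background level served 4.85, under which lie the means of 95% of the 27 probe sets for bacterial spike transcripts. By this rough mark 25 of the 33 genes (75.8%) had a mean above background, against 77.6% of all genes. That was 7 of 7 anterior genes (paralogue numbers 1 to 3), 11 of 12 central genes (4 to 8, all but Hoxc8) and 7 of 14 posterior genes (9 to 13). All 4 genes of paralogue number 9 stood above it, and the 3 of number 10 did not. On no array did Hoxa10, Hoxa13, Hoxc13, Hoxd10, Hoxd11 or Hoxd13 exceed the level. Every member of cluster B lay above it, including Hoxb13, which marks the tail end of the axis, at 5.29 in wild type and 5.32 in the mutant. Probe sets differ in brightness for the same amount of RNA, so levels of different genes are not set against each other.

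**Figure D1:**
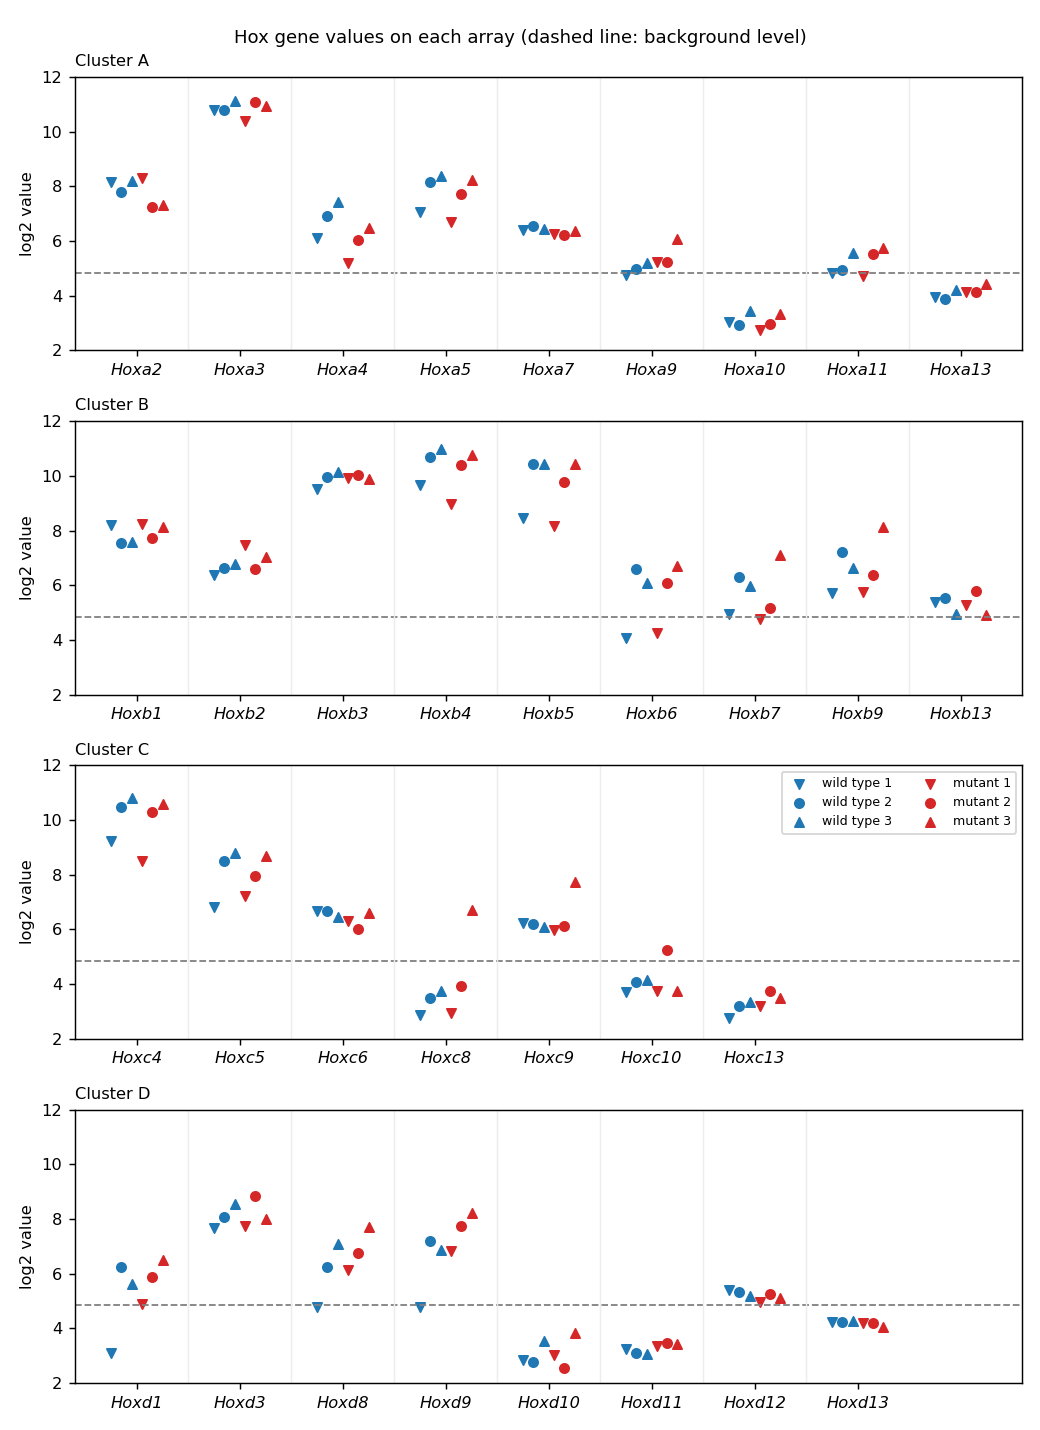
The log2 value of each of the 33 Hox genes on each array, 1 panel per cluster with genes in order of paralogue number; blue marks are wild type, red marks mutant, and the shape gives the replicate number. The dashed line is the background level of 4.85. Arrays numbered 1 (triangles pointing down) sit lowest for genes such as Hoxb5, Hoxc4 and Hoxc5. The values of Hoxa3 (10.41 to 11.14) and of Hoxb3 (9.51 to 10.15) lie closer together than those of these genes.

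No Hox gene passed the test between mutant and wild type. With limma's moderated test and Benjamini-Hochberg adjustment over all 18193 genes, 0 of 33 were called in either direction, beside 12 higher genes (0.066%) and 0 lower genes over the whole array. The smallest adjusted p among Hox genes was 0.431, for Hoxd11. At an unadjusted p under 0.05 there were 0 Hox genes, against 11.6% of all genes. The groups of 3 arrays did not overlap for 2 Hox genes in the higher direction (8.64% of all genes) and for 2 in the lower (9.18%), together 4 against 17.8% of all genes. Of the 33 differences, 19 were above 0 and 14 below, with a median of 0.08; the median over all genes was −0.03. Its sign rested on single arrays. It was below 0 when wild-type replicate 1 was left out (−0.11), and likewise for mutant replicates 2 (−0.09) and 3 (−0.12), while leaving out mutant replicate 1 gave 0.26.

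**Figure D2:**
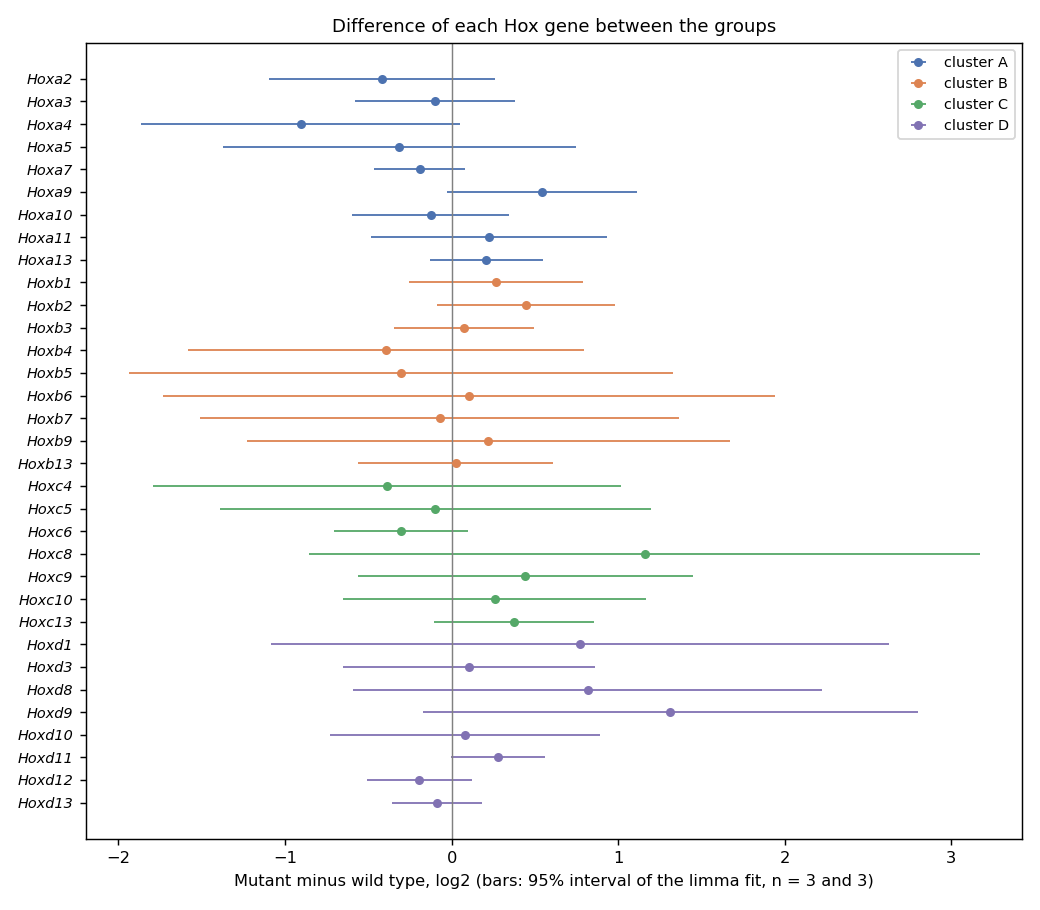
Mutant minus wild type for each of the 33 Hox genes on the log2 scale, coloured by cluster, with the 95% interval of the limma fit (3 arrays a group). Every interval includes 0; the widest, such as that of Hoxc8 from −0.85 to 3.17, belong to genes that differ between arrays of 1 group.

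Among anterior genes, which pattern hindbrain segments and the pharyngeal region, both directions were seen. Hoxb2, which acts in the hindbrain, read 6.39, 6.62 and 6.78 in wild type (arrays 1, 2 and 3 in that order, as for all genes) and 7.48, 6.61 and 7.04 in the mutant, a difference of 0.45 (SE 0.23, adjusted p = 0.496 by limma; 0.23 without mutant replicate 1). Only mutant array 2 overlapped the wild-type range. Hoxb1, a gene of a single hindbrain segment and of posterior heart progenitors, read 8.21, 7.54 and 7.58 against 8.26, 7.75 and 8.13, so the arrays numbered 1 were its highest in both groups. Hoxa2, which patterns the second pharyngeal arch, read 8.15, 7.81 and 8.19 against 8.32, 7.25 and 7.32. For Hoxa2, mutant arrays 2 and 3 were below all wild-type arrays and mutant array 1 was above them.

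The group 3 genes, which are needed for structures of the third pharyngeal arch, had differences near 0 at their brightest probe sets, while dimmer Hoxa3 probe sets went both ways, from −0.52 to 0.76. The brightest of Hoxa3 stood at 10.92 ± 0.19 (SD, n = 3) in wild type and 10.82 ± 0.37 in the mutant, a difference of −0.10 with a 95% interval from −0.58 to 0.38. Hoxb3 stood at 9.88 ± 0.33 and 9.95 ± 0.08, and Hoxd3 at 8.09 ± 0.43 and 8.20 ± 0.57. The 95% interval of the difference ran from −0.35 to 0.50 for Hoxb3 and from −0.65 to 0.86 for Hoxd3. Hoxd1 was the least even anterior gene. It read 3.08, 6.25 and 5.62 in wild type and 4.91, 5.87 and 6.50 in the mutant, so that wild-type array 1 alone lay below background.

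Of the 12 central genes, which pattern the neck and upper trunk, 9 had lower mean values in the mutant and 3 higher, and the median was −0.25. Leaving out mutant replicate 1 turned it to 0.26, with 9 genes higher, and leaving out wild-type replicate 1 gave −0.68. Hoxa4 had the lowest difference of all 33. It read 6.11, 6.93 and 7.43 in wild type and 5.21, 6.05 and 6.50 in the mutant, a difference of −0.91 (SE 0.41, adjusted p = 0.453 by limma). Within each replicate number, which was not taken to pair the samples, the mutant array was the lower. Mutant array 3 lay above wild-type array 1, so the groups overlapped. Without mutant replicate 1 the difference was −0.55 and without wild-type replicate 3 it was −0.60, and a separate, dimmer Hoxa4 probe set gave −1.34.

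Hoxb4 and Hoxc4, the paralogues of Hoxa4, had the lowest differences of clusters B and C, and both overlapped between the groups. Hoxb4 read 9.66, 10.69 and 10.97 against 8.98, 10.40 and 10.77, a difference of −0.39 with SE 0.51. Hoxc4 read 9.23, 10.48 and 10.81 against 8.50, 10.28 and 10.57, a difference of −0.39 with SE 0.60. In both genes the arrays numbered 1 were the lowest of all 6, and the difference changed sign without mutant replicate 1, to 0.15 for Hoxb4 and 0.26 for Hoxc4. With wild-type replicate 1 left out the differences were −0.78 and −0.86, with wild-type replicate 3 left out −0.13 and −0.07, and with mutant replicate 3 left out −0.75 and −0.78. That of Hoxc4 was −0.23 leaving out wild-type replicate 2 and −0.64 leaving out mutant replicate 2.

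The group 5 genes had the same order of arrays. Hoxb5 read 8.45, 10.42 and 10.43 in wild type and 8.17, 9.77 and 10.45 in the mutant. Hoxc5 read 6.83, 8.51 and 8.78 against 7.22, 7.94 and 8.68, and Hoxa5, which is needed for the airway and the neck vertebrae, 7.08, 8.15 and 8.38 against 6.70, 7.73 and 8.23. In each of the 3 genes both arrays numbered 1 lay below the other 4 arrays. The differences between the groups were −0.31 for Hoxb5, −0.10 for Hoxc5 and −0.31 for Hoxa5. Hoxb6 crossed the background level in the same way, at 4.06, 6.60 and 6.07 against 4.27, 6.08 and 6.70.

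Hoxa7 and Hoxc6 had the smallest spread of the central genes. Hoxa7 read 6.41, 6.56 and 6.46 in wild type and 6.27, 6.23 and 6.36 in the mutant, so its groups did not overlap, but the difference was small at −0.19 (SE 0.12, adjusted p = 0.554 by limma). Hoxc6 read 6.69, 6.69 and 6.46 against 6.31, 6.02 and 6.60, a difference of −0.30 (SE 0.17, adjusted p = 0.534), which was −0.16 without mutant replicate 2 and −0.20 with the mean of its probe sets. The group 8 genes, in contrast, had higher means in the mutant. Hoxc8 read 2.87, 3.49 and 3.75 against 2.94, 3.92 and 6.73, and mutant array 3 was its only array above background. Its difference of 1.16 (SE 0.86) was 0.06 without that array and 1.95 without mutant replicate 1. Hoxd8 read 4.79, 6.23 and 7.09 against 6.14, 6.74 and 7.69, a difference of 0.82 (SE 0.60), with wild-type array 1 below background.

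Among the 14 posterior genes, which pattern the lower trunk, limbs and tail, 11 had higher mean values in the mutant and 3 lower, and the median was 0.22 (0.07 if mutant replicate 3 is left out, 0.10 if wild-type replicate 1 is). Of the 11, Hoxa13, Hoxc13, Hoxd10 and Hoxd11 exceeded background on no array and Hoxc10 on 1. Of the 3 lower genes, Hoxa10 and Hoxd13 exceeded it on no array. The directions of these genes carry little meaning. Hoxd9 had the highest difference of all 33. It read 4.78, 7.18 and 6.87 in wild type and 6.84, 7.73 and 8.20 in the mutant, a difference of 1.31 (SE 0.64, 2.48-fold, adjusted p = 0.475 by limma). Without wild-type replicate 1 it was 0.56. Wild-type array 1 was just below background, and the other wild-type arrays were above mutant array 1. Hoxa9 read 4.75, 4.99 and 5.18 against 5.25, 5.24 and 6.06, close to background and with groups that did not overlap, a difference of 0.54 (SE 0.24, adjusted p = 0.453) that was 0.27 without mutant replicate 3.

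Mutant array 3 was the highest of the 6 arrays for every gene of group 9. Hoxb9 read 5.71, 7.22 and 6.65 against 5.76, 6.37 and 8.12. Hoxc9 read 6.24, 6.19 and 6.09 against 5.98, 6.12 and 7.75, so that the other 5 arrays lay between 5.98 and 6.24. The same array was the highest for 13 of the 33 Hox genes (39.4%), both group 8 genes among them, against 15.1% of all genes.

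The remaining posterior genes were near or under background. Hoxd11 (3.25, 3.09 and 3.04 against 3.35, 3.46 and 3.41) did not overlap in the higher direction, and Hoxd13 (4.24, 4.23 and 4.26 against 4.21, 4.21 and 4.05) in the lower. Both were below background on all arrays, so their levels are only bounded from above. Hoxd12 read 5.41, 5.31 and 5.18 against 4.95, 5.25 and 5.13, the lowest difference of its cluster at −0.19 (SE 0.14), or −0.11 without mutant replicate 1. Hoxc13 was below background at 2.76, 3.21 and 3.33 against 3.18, 3.75 and 3.50. Hoxc10, a gene of the lower trunk and hindlimb, exceeded background on mutant array 2 alone, at 5.23. Hoxa11, known from limb and kidney, read 4.82, 4.93 and 5.57 against 4.72, 5.54 and 5.73.

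By cluster, the median difference was −0.12 for the 9 genes of cluster A, 0.07 for the 9 of B, 0.26 for the 7 of C and 0.19 for the 8 of D. Higher means were seen for 3, 6, 4 and 6 genes in turn. The medians of cluster C (−0.09 leaving out mutant replicate 2, −0.12 leaving out mutant replicate 3) and cluster D (−0.06 without wild-type replicate 1) changed sign without single arrays. Cluster B did so as well (−0.19 leaving out wild-type replicate 1, −0.40 leaving out mutant replicate 3), and cluster A without mutant replicate 1 (0.11) or wild-type replicate 3 (0.01).

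The arrays of 1 group differed far more for Hox genes than for most genes. The pooled SD within groups had a median of 0.51 over the 33 genes and of 0.20 over all 18193. It exceeded 0.5 for 17 Hox genes (51.5%) and for 5.79% of all genes. By class the median was 0.34 for anterior, 0.95 for central and 0.37 for posterior genes. The highest values were those of Hoxc8 (1.43), Hoxd1 (1.31) and Hoxb6 (1.30), and the lowest those of Hoxd13 (0.06), Hoxa7 (0.07) and Hoxd11 (0.08).

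**Figure D3:**
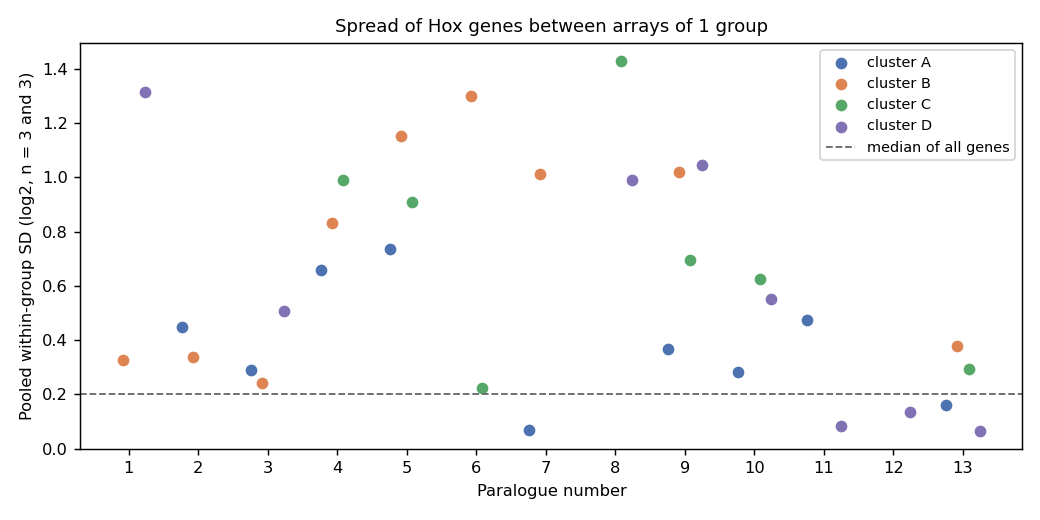
Pooled within-group SD (log2, 3 arrays a group) of each Hox gene against its paralogue number, coloured by cluster; the dashed line is the median of all genes, 0.20. Most genes of numbers 4 to 9 lie above 0.5, with Hoxa7 (0.07), Hoxc6 (0.22) and Hoxa9 (0.37) below.

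This spread had an order. The array numbered 1 was the lowest of its group in both groups for 16 of 33 Hox genes (48.5%), against 13.5% of all genes, and for 10 of the 12 central genes. For 15 Hox genes (45.5%, against 6.99%) both arrays numbered 1 lay below the other 4 arrays. The reverse, the array numbered 1 highest in both groups, was seen for 1 Hox gene, Hoxb1, and for 11.8% of all genes. The deviations of wild-type array 1 and mutant array 1 from their group means had a correlation of 0.73 across the 33 genes, which share arrays and cluster neighbours, and of 0.06 across all single-gene probe sets. Relative to each gene's mean over 6 arrays, the median deviation of the central genes was −0.75 on wild-type array 1 and −1.01 on mutant array 1. For arrays 2 and 3 it came to 0.47 and 0.65 in wild type and to −0.01 and 0.64 in the mutant. Leaving out both arrays numbered 1, a step chosen after these values were seen, gave a median difference of 0.06 over the 33 genes, −0.23 over the central genes and 0.33 over the posterior genes.

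**Figure D4:**
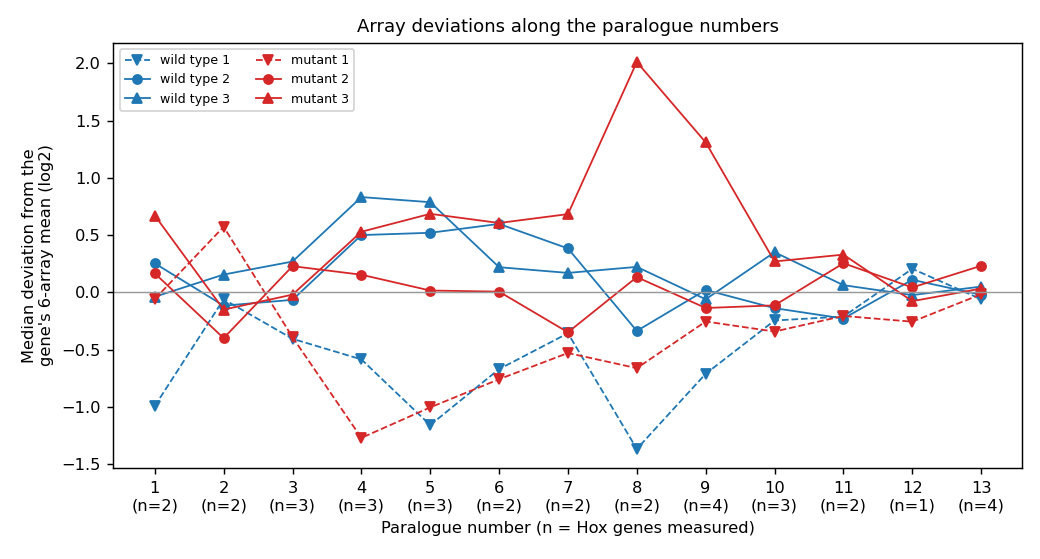
Median deviation of each array from the 6-array mean of a gene (log2), over the 1 to 4 Hox genes of each paralogue number; blue lines are wild type, red lines mutant, dashed lines the arrays numbered 1. Both dashed lines lie below the others from number 4 to number 9, with mutant array 2 close above them at number 7 (−0.35), and mutant array 3 reaches 2.01 at number 8.

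Other transcripts moved with these arrays. The antisense transcripts within clusters B and D followed the same order over a wider range. Hoxb5os read 4.05, 8.88 and 7.90 in wild type and 4.58, 7.88 and 10.86 in the mutant, and Hoxd3os1 read 3.16, 8.43 and 6.25 against 4.63, 6.78 and 9.49. Both arrays numbered 1 were below background for both transcripts, and mutant array 3 was the highest. The strand of the labelled product is not given in the sources used here, so signal from a gene and its antisense partner cannot be told apart. Aldh1a2, the enzyme that makes retinoic acid in trunk mesoderm, read 7.09, 9.12 and 8.69 against 6.22, 8.30 and 9.05, again lowest on both arrays numbered 1.

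Egr2, a factor of hindbrain segments and of neural crest, ran the opposite way. It read 9.23, 4.43 and 3.91 in wild type and 9.62, 8.03 and 7.70 in the mutant, highest on the arrays numbered 1 and below background on wild-type arrays 2 and 3. Its difference of 2.59 did not pass (adjusted p = 0.494 by limma). Cyp26b1, which breaks retinoic acid down in hindbrain and elsewhere, was also highest on the arrays numbered 1, at 10.16, 7.98 and 8.75 against 10.72, 9.28 and 9.72.

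**Figure D5:**
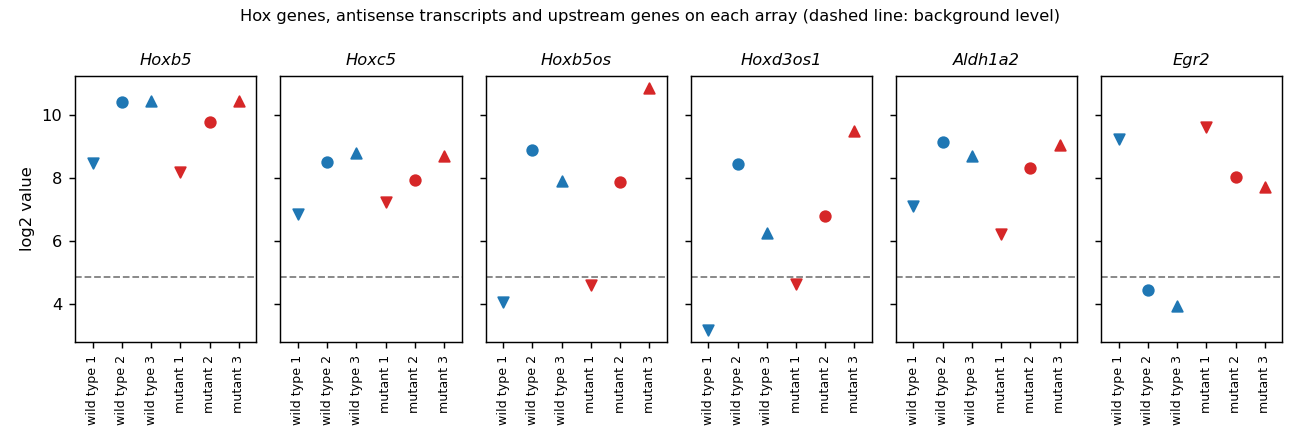
The log2 values of Hoxb5, Hoxc5, the antisense transcripts Hoxb5os and Hoxd3os1, the retinoic acid enzyme Aldh1a2 and the hindbrain factor Egr2 on each array, with the background level of 4.85 as a dashed line. The arrays numbered 1 are the lowest in each group for all but Egr2, where they are the highest at 9.23 and 9.62.

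Markers of other cells differed between the same arrays. For 5 of 8 visceral endoderm genes the arrays numbered 1 were the lowest in both groups, and the mean level of this list was 6.10, 8.66 and 8.15 in wild type and 5.55, 6.98 and 7.40 in the mutant. Afp, its defining secreted protein, was below background on both arrays numbered 1, at 4.08 and 2.60. The same held for 7 of 13 paraxial and posterior mesoderm genes, with a list mean of 5.23 to 5.82 in wild type and 5.45 to 6.06 in the mutant, and for 6 of 15 cardiomyocyte genes (list mean 8.72 to 9.44 in wild type and 8.66 to 8.95 in the mutant) and 6 of 14 second heart field genes. Meox2, a somite factor, read 4.15, 6.29 and 6.42 against 4.23, 5.37 and 6.04. Of 16 neural genes 1 had this order, of 12 endothelial genes 0 and of 10 neural crest genes 1, against 13.5% of all genes. On mutant array 3 the highest value was seen for 7 of 8 surface ectoderm genes, 6 of 11 endoderm genes and 5 of 7 primitive erythroid genes. It was also seen there for 5 of 10 neural crest genes and 5 of 12 endothelial genes, against 15.1% of all genes. Where a list is higher in the mutant, a mutant array is more often the highest. For such lists these counts are not separate from the group differences that follow. Between the groups, means were higher in the mutant for 12 of 12 endothelial genes (median 0.86, groups not overlapping in that direction for 9). Likewise higher were 8 of 8 surface ectoderm genes (0.85, 5) and 8 of 10 neural crest genes (0.49, 4). Of all genes 8.64% did not overlap in the higher direction. Means were lower for 15 of 16 neural genes (−0.59, 3) and 7 of 8 visceral endoderm genes (−1.02, 1). They were also lower for 12 of 15 cardiomyocyte genes (−0.32, 3) and 7 of 7 primitive erythroid genes (−0.21, 0). In the lower direction 9.18% of all genes did not overlap. Of 14 second heart field genes 6 were higher and 8 lower (median −0.31, groups not overlapping for 1 higher and 3 lower). Among them Isl1 read 9.24, 9.36 and 9.77 against 8.72, 8.61 and 7.49 (−1.18, adjusted p = 0.269 by limma). Of 11 endoderm genes 6 were higher and 5 lower (0.46, 1 and 3), and of 4 forelimb genes 1 and 3 (−0.50, 0 and 1). Paraxial and posterior mesoderm genes were higher for 9 and lower for 4 (0.07, 1 and 0), hindlimb genes for 3 and 1 (0.02, 1 and 0). Of the marker lists 0 genes were called, against 0.066% of all genes higher and 0 lower. The part of these cells in the Hox values was not tested. For the hindlimb, where Isl1 is also active, Tbx4 lay between 4.61 and 5.13 on the 6 arrays, close to background, and Pitx1 at 6.64 and 6.66. Fgf10 stood at 6.35 in wild type and 6.36 in the mutant. Lin28b was below background on every array, at 3.96 and 4.57, with groups that did not overlap.

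Probe sets of 1 gene were compared in a fit over all 34945 single-gene probe sets. Of the 48 Hox probe sets 0 passed, against 0.0229% of all, and the smallest adjusted p was 0.404. At an unadjusted p under 0.05 there were 3 (11.4% of all), 1 each for Hoxa3, Hoxa4 and Hoxd8, and groups did not overlap for 6 (17.5% of all). Of 11 genes with several probe sets, 3 had differences of both signs. The 4 of Hoxa3 were at −0.52, −0.18, −0.10 and 0.76, the 3 of Hoxc5 at −0.10, 0.20 and 0.47 and the 2 of Hoxb3 at −0.07 and 0.07. The Hoxa3 probe set at 0.76 read 7.12, 7.46 and 6.56 against 7.52, 8.31 and 7.60, without overlap, while the brightest Hoxa3 probe set was near 0. A dimmer Hoxd8 probe set gave 1.22, at 4.71, 4.89 and 5.21 against 5.19, 5.92 and 7.36, and a dimmer Hoxa9 probe set gave 1.04, with mutant array 3 at 7.97 and the other 5 arrays between 3.09 and 4.97.

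Genes that regulate or partner the Hox genes were taken from lists, of which none had a called member. Of 8 measured TALE cofactors, 8 were above background and the median difference was −0.13. Meis1 read 10.14, 10.04 and 9.93 against 9.63, 9.61 and 9.99 (−0.29, SE 0.15), Pbx4 stood at −0.23 and Pbx2 at −0.21. The arrays numbered 1 did not stand apart there, with 1 of 8 lowest in both groups. Of the 5 caudal and even-skipped genes 4 had higher means, among them Cdx4, which was below background on every array (2.58 against 2.72). Evx1, which lies beside cluster A and is a gene of the posterior mesoderm, read 4.93, 5.48 and 5.53 against 6.76, 7.50 and 6.01. The difference was 1.45 (SE 0.36, adjusted p = 0.237 by limma). Its groups did not overlap, for this 1 of the 5 genes and for 8.64% of all genes in the higher direction. Cdx1, a direct activator of Hox genes, read 4.68, 5.62 and 4.92 against 5.35, 6.42 and 6.63 (1.06, SE 0.37, adjusted p = 0.363). Cdx2 stood at 0.78, with mutant array 2 at 7.32 and the other 5 arrays between 5.14 and 5.43. Cdx1 had its lowest value on array 1 in both groups, as the central Hox genes did, and Evx1 did not.

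Of 13 retinoid genes 8 had higher means (median 0.21), with Rdh10, which makes retinal, at 0.52, the retinoic acid-degrading Cyp26a1 at 0.49 and the binding protein gene Crabp2 at −0.23 (adjusted p from 0.316 to 0.550 by limma). For 7 of the 13 the arrays numbered 1 were the lowest in both groups. Rarb, a retinoid receptor and a known retinoid target, was among these at 6.29, 7.17 and 6.95 against 5.76, 6.73 and 7.09. Of 3 measured hindbrain regulators, Gbx2 stood at 0.37 (adjusted p = 0.391) and Gbx1 at −0.41. Of 8 posterior patterning genes 6 had lower means (median −0.24). The 3 with the smallest p were Wnt5a at −0.48, Tbx6 at −0.31 (above background on only 2 arrays) and, in the higher direction, Fgf8 at 0.47. The 20 Polycomb and Trithorax genes, which keep Hox genes off or on through histone marks, had a median of −0.02 and were all above background. Eed stood at −0.23, Bmi1 at −0.28 and Jarid2 at 0.35. The groups did not overlap for 1 of the 20, Eed, a core Polycomb subunit. Its wild-type arrays lay at 10.57 or higher and its mutant arrays at 10.50 or lower. Of all genes 9.18% did not overlap in the lower direction. In the higher direction the groups did not overlap for Rdh10, 1 of the 13 retinoid genes, and Gbx2, 1 of the 3 hindbrain regulators. The share over all genes was 8.64% there.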

How the data were processed

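Total RNA of sorted cells was amplified from very small amounts (WT-Ovation Pico), labelled with biotin and hybridised to Affymetrix arrays, per the labels' protocols. The authors deposited log2 values, 1 for each of 45101 probe sets on each array; the sources used here do not name the background correction, summarisation or normalization. Values ran from 1.89 to 15.07, array medians from 6.47 to 6.50, and the sorted values differed by an SD of at most 0.07 at any rank, so the arrays appear already aligned and were used as deposited. An alignment would remove a shift shared by most genes. The number of arrays limits the precision.

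Names came from GEO's platform annotation, updated by gene identifier through RefSeq (34741 of 34945 single-gene probe sets matched). Not tested were 64 controls, 932 probe sets with more than 1 gene name and 9160 left unnamed by the annotation. The probe set with the highest mean stood for a gene, and no gene was filtered. Groups were compared with limma 3.58.1 in R 4.3.3 (two-sided, no covariate, residual degrees of freedom 4, prior 3.45, Benjamini-Hochberg over all genes, threshold 0.05). Adjusted p-values come from this fit unless stated, differences are mutant minus wild type, and SE and 95% intervals are moderated. With 3 arrays a group the smallest p of an exact permutation test is 0.1.

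The Hox genes and lists were chosen with earlier results of these data known. Values on every array were given, by rule, for Hox genes whose groups do not overlap, the 8 with the smallest p and the extremes of each cluster, and differences for the 3 smallest p of each pathway list, while marker lists are given by counts; others were chosen after their values were seen. The fit was tested on simulated data. Alternatives were replicate block, scaling, a filter on dim genes, choice of probe set, prior, array weights, call rule and left-out arrays.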

Additional observations from a re-analysis of the deposited data

How the results depend on the processing

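Under all 18 alternatives 0 Hox genes were called by limma, with an adjusted p of at least 0.156 for the 13 genes named by rule. Of their 189 values under the alternatives, 2 changed sign, both without mutant replicate 1: Hoxb4 to 0.15 and Hoxc4 to 0.26 (lowest without wild-type replicate 1, −0.78 and −0.86). The counts of genes whose groups do not overlap (2 higher and 2 lower) moved: 1 lower with quantile normalization, 0 higher and 1 lower without the dimmest 40% of genes (18 Hox genes left), and 1 higher and 1 lower with the most variable probe set or the mean of probe sets. Leaving out single arrays gave 2 to 5 higher and 2 to 4 lower, as smaller groups overlap less often by construction, and leaving out both arrays numbered 1, chosen after seeing the data, 6 higher and 4 lower. The median difference ran from −0.12 to 0.26, and was −0.10 without the dimmest genes and −0.01 over all 48 probe sets.

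Same-numbered arrays did not deviate together over all single-gene probe sets (correlations of 0.06, −0.09 and −0.01), so the numbers were not taken to pair the samples. With the replicate block 0 Hox genes were called (smallest adjusted p 0.156, for Hoxa4), 5 (15.2%, against 10.7% of all genes in that fit) had an unadjusted p under 0.05, where there were 0 without it, and the median SE of Hox genes was 0.18 against 0.32, while the calls over all genes went from 12 to 0. Over the 33 Hox genes the same correlations were 0.73, 0.19 and 0.43, and wild-type array 2 correlated better with mutant array 3 (0.45) than with its own number. Deviations within a group sum to 0, so arrays numbered 1 that are low together favour positive values among arrays 2 and 3. Those values are therefore not separate from the 0.73, which is a hint from the data and not the design.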

Other observations

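Probe sets that name 2 Hox genes fell outside the rule, and signal there cannot be assigned to either gene. The 1 shared by Hoxb7 and Hoxb8 read 6.24, 8.29 and 7.92 in wild type and 6.09, 7.84 and 8.70 in the mutant, lowest on the arrays numbered 1 and highest on mutant array 3. Of the 2 shared by Hoxd3 and Hoxd4, the brighter read 7.97, 7.81 and 8.09 against 7.53, 8.32 and 8.18, and the other 6.37, 7.35 and 7.42 against 6.34, 6.68 and 6.93.

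Genes that flank the clusters and encode other proteins did not pass. Skap2, beside cluster A, read 9.89, 10.29 and 10.16 against 9.55, 10.25 and 10.33, and Mtx2, beside cluster D, 10.37, 10.30 and 10.62 against 10.12, 10.36 and 10.15. Hibadh, also beside cluster A, had groups that did not overlap, at 9.57, 9.19 and 9.31 against 9.81, 9.87 and 9.83 (0.48, adjusted p = 0.284 by limma). Skap1, beside cluster B, and Cbx5, beside cluster C, did not overlap in the lower direction, at −0.25 and −0.15. Of the 11 measured noncoding and neighbouring genes this makes 1 higher and 2 lower. Over all genes the shares were 8.64% and 9.18%. Hoxa11os, the antisense partner of Hoxa11, was below background on every array, between 3.13 and 3.52.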
